A study of Glycyrrhiza uralensis with 15 samples.

Results

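Of 30197 genes measured in licorice seedlings, 129 stood apart in the same direction in all droughted plants that received a bacterium, silicon or both, set against droughted and watered plants that received neither. Of these genes, 51 were higher and 78 were lower in the treated plants. A gene was taken when its 9 treated libraries all lay above, or all lay below, the 6 untreated libraries. Its largest group mean also had to be 5 CPM or more (CPM is the share of a library's reads per gene, scaled to a fixed total), the means of the untreated groups within 2-fold of each other, and the largest treated mean under 3 times the smallest. The genes were thus chosen by their CPM in these 15 libraries, so their separation and its size are described here with no test.

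The plants were whole seedlings of Glycyrrhiza uralensis at 45 days, grown in pots of sterilized, nutrient-free desert sand and sequenced as full-length cDNA on a nanopore instrument, with 3 libraries in each of 5 groups. DB was drought at 35 to 45% of saturation moisture with G5 (the bacterium Bacillus pumilus, going by the design text), DSi was the same drought with silicon at 2 mM, and DBSi was drought with G5 and silicon, for which the labels give no moisture or dose. D was the same drought as in DB and DSi with nothing added, and CK was watered at 65 to 75%. A library carries the name of its group and its replicate number, as in DB-1. Nothing in the labels ties replicates to different pots, and the p-values below reflect only how far these libraries differ, a spread that may be technical.

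Bacillus pumilus is a soil bacterium that lives on and in roots, and some strains promote plant growth. Silicon is taken up by roots as silicic acid and laid down in cell walls, and it is applied to crops that face drought. Licorice itself is a legume of dry regions whose roots hold the triterpenoid glycyrrhizin. The deposited tables hold gene IDs with no names, so none of the 129 genes can be given a function here, and the organ makeup of the seedlings could not be checked against marker genes. A lower level in a whole seedling can come from fewer cells of a type or from less RNA per cell, which cannot be told apart.

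Libraries held 3039422 to 4043823 reads assigned to genes, and a single read was worth 0.247 to 0.329 CPM. Some libraries stood apart from their groups. Scores on the second principal component were -75.2 in DB-3, -47.3 in D-2 and -45.4 in CK-3, against -21.4 to 48.6 in the other 12 libraries. The scores for all of the DBSi libraries on the first component were positive, at 24.5, 74.8 and 65.4. So were those of DB, at 0.437, 8.47 and 46.8, and of D-2, at 20.5. All libraries differed by more than sampling noise. The lowest chi-square per degree of freedom was 8.93 within a group and 5.86 between groups, so the most alike pair came from different groups.

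Separation of the libraries alone held for 65 genes in the higher direction, which is 0.385% of the 16871 genes with a largest group mean of 5 CPM or more, and for 85 genes in the lower direction, which is 0.504%. The limit on D and CK then removed 4 higher and 3 lower genes, and the limit on the treated means removed 10 and 4. The balance of the directions depended on scaling. Of the 129 genes 39.5% were higher, whereas the rule applied to values scaled by median-of-ratios gave 65 higher and 60 lower genes (52% higher), and to values scaled by TMM 67 and 59 (53.2% higher). Across all 16871 genes the median log2 difference of treated and untreated means was -0.05 as deposited and -0.01 with median-of-ratios scaling. Of the members, 45 of the 51 higher and 40 of the 78 lower genes met the rule under both scalings.

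Single libraries held many further genes out of the list. Without DSi-3 the rule took 96 higher and 181 lower genes, and without D-1 it took 135 lower genes. Without CK-1 and without CK-3 it took 103 and 90 higher genes. Without DB-3, D-2 and CK-3 together it took 203 higher and 234 lower genes, an alternative added once the values were known, with only 12 libraries left to separate. The treated library closest to the untreated ones was DSi-3 for 18 of the 51 higher genes and DSi-1 for 20 of the 78 lower genes. The untreated library closest to the treated ones was CK-1 for 17 higher and 20 lower genes.

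**Figure D1:**
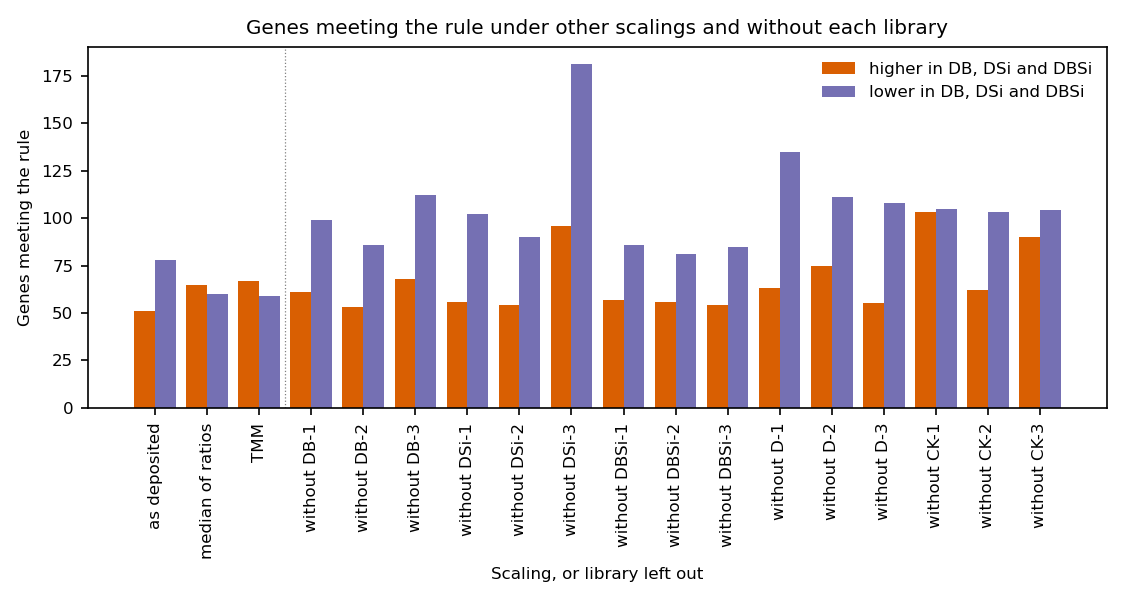
Bars give the number of genes that met the rule (vertical axis) in the higher (orange) and lower (violet) direction, with values as deposited, under other scalings, and without each library in turn. The pair of bars at the left shows 51 and 78 genes, and the pair without DSi-3 shows 96 and 181.

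The higher genes were separated by modest distances. Their fold, taken as the mean of the 3 treated group means over the mean of the D and CK means, had a median of 2.26 (quartiles 1.78 and 2.74) and ran from 1.25 to 4.43. It was 2 or more in 30 of the 51 genes and 3 or more in 9. The gap, meaning the lowest treated library over the highest untreated library, had a median of 1.12, and it was under 1.1 in 19 genes and 1.5 or more in 4. Set against the mean of D and CK, the median fold was 2.12 in DB, 1.9 in DSi and 2.35 in DBSi. Over all 16871 genes these medians were 0.932, 1.01 and 0.94. Summed over the 51 genes, libraries held 3524 ± 348 CPM in DB, 3097 ± 458 in DSi, 3970 ± 615 in DBSi, 1530 ± 124 in D and 1627 ± 289 in CK (SD, n = 3 each).

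**Figure D2:**
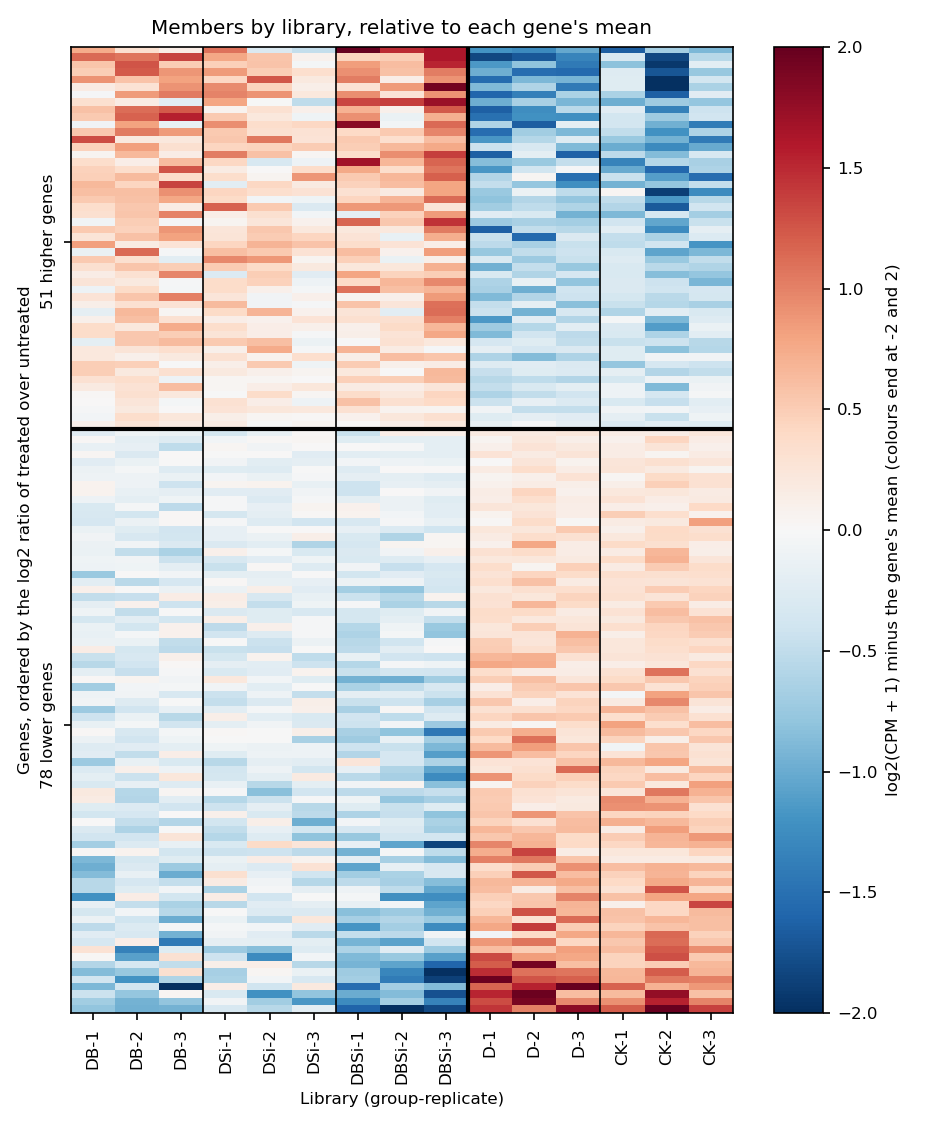
Each row is 1 of the 129 genes and each column 1 library, and the colour gives log2(CPM + 1) minus the gene's mean over the 15 libraries. The upper 51 rows are higher (red) in the 9 libraries of DB, DSi and DBSi at the left than in the 6 of D and CK at the right, and the lower 78 rows are lower (blue) there.

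The gene with the largest fold among the higher genes, 4.43, was Glyur000065s00004279. It stood at 49.9, 37.1 and 32.6 CPM in DB, 63.5, 24 and 20.8 CPM in DSi and 126, 85 and 92.5 CPM in DBSi, against 12.3, 11.5 and 14 CPM in D and 8.74, 17.9 and 15.4 CPM in CK. DBSi was the highest group, and the nearest libraries were DSi-3 and CK-2. This gene did not meet the rule after TMM scaling. Glyur000049s00003169 followed with a fold of 4.19. Its levels were 172, 165 and 201 CPM in DB, 134, 115 and 83.1 in DSi and 107, 111 and 242 in DBSi, against 21.5, 23.4 and 30.7 in D and 62.1, 21.3 and 52.6 in CK. Here DB was the highest group by mean, and 2 of the 3 CK libraries lay above all D libraries. It was also the gene nearest to the 2-fold limit on D and CK, which differed 1.8-fold.

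ONT.3684, whose ID is of the form given to loci outside the reference gene set, was lower in level. It stood at 12.6, 20.9 and 12.1 CPM in DB, 11.8, 12.6 and 7.91 in DSi and 15.3, 13.1 and 25.4 in DBSi, against 3.15, 4.28 and 2.43 in D and 4.21, 1.42 and 6.97 in CK, where its lowest library held 5 reads. Glyur000695s00020670 had one of the widest gaps, 1.53. It stood at 44.2, 74.3 and 58.4 CPM in DB, 56.9, 44.4 and 39.6 in DSi and 60.1, 47.3 and 64.5 in DBSi, against 15.5, 10.2 and 10 in D and 25.9, 8.82 and 18 in CK. The treated groups of this gene overlapped one another throughout. Glyur000066s00006251 was as even, with means of 40.6 ± 4.76 CPM in DB, 38.7 ± 16.1 in DSi, 39.8 ± 12.1 in DBSi, 10.5 ± 2.64 in D and 14 ± 8.48 in CK (SD, n = 3 each).

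**Figure D3:**
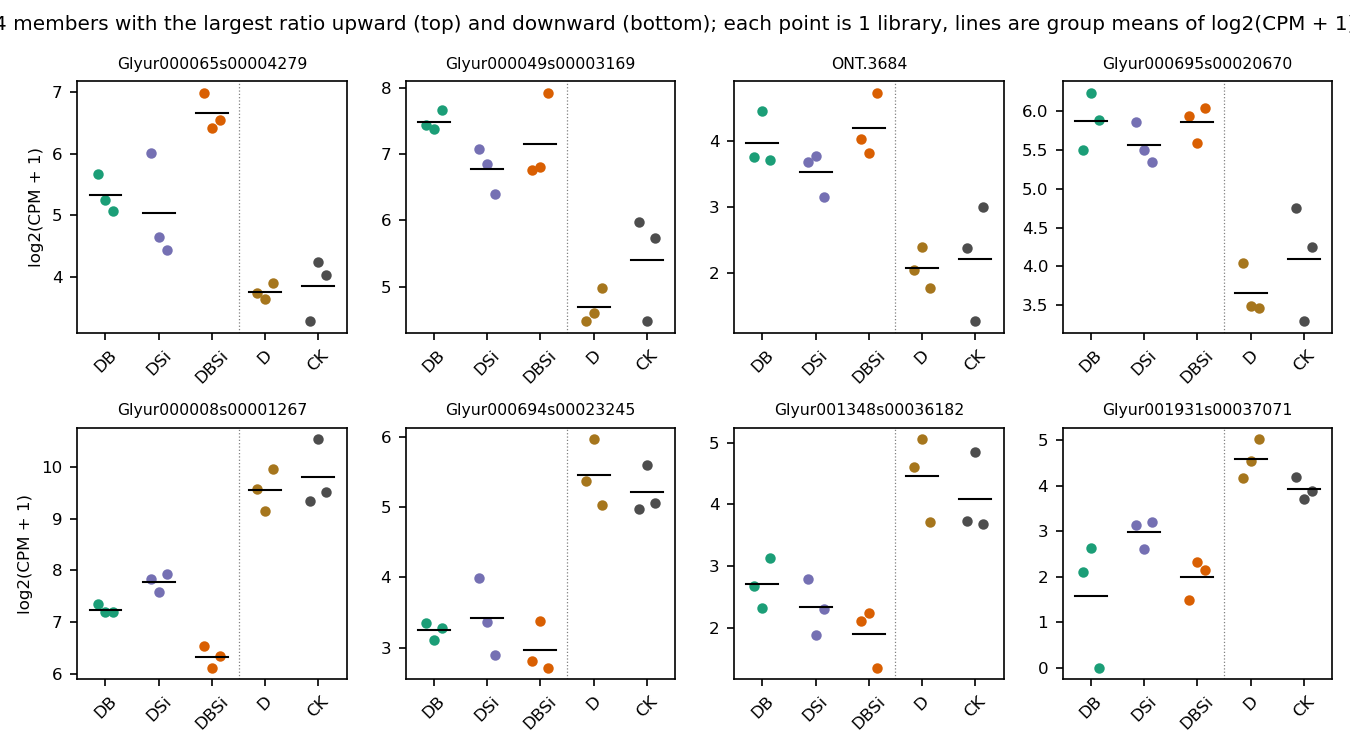
Points are single libraries and black lines group means on the log2(CPM + 1) scale for the 4 genes with the largest fold upward (top row) and downward (bottom row), with groups from DB to CK along the horizontal axis. In all 8 genes the points left of the dotted line lie wholly above (top) or below (bottom) those right of it, and Glyur001931s00037071 has 1 DB library at 0.

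Other higher genes with large folds differed in which treatment was highest. Glyur000018s00003748 was 3.15-fold higher, with 148 ± 42.6 CPM in DB, 154 ± 45.2 in DSi, 241 ± 144 in DBSi, 54.9 ± 15.2 in D and 59.6 ± 33.6 in CK (SD, n = 3 each). The wide spread in DBSi came from DBSi-3 at 403 CPM. Glyur000214s00016032 was 3.13-fold higher and level across the treatments, with 216 ± 75.6, 223 ± 59.6 and 221 ± 52.6 CPM in DB, DSi and DBSi, against 60.1 ± 22.4 in D and 80.3 ± 35.8 in CK (SD, n = 3 each). Glyur000107s00007216 was 2.93-fold higher, with its highest treated mean in DB and its lowest in DSi. DB had 186 ± 63.9 CPM, DSi 98.4 ± 21.2 and DBSi 124 ± 42.6, against 33.1 ± 3.64 in D and 59.6 ± 7.98 in CK (SD, n = 3 each). Glyur000067s00006380, 3.01-fold higher, had the same order of means and stood at 31.7 ± 7.19 CPM for DB, 17.3 ± 1.65 for DSi and 26.4 ± 10.4 for DBSi, against 6.85 ± 3.12 in D and 9.89 ± 3.97 in CK (SD, n = 3 each).

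The most abundant of the higher genes was Glyur000719s00020105, 2.38-fold higher, which ranked 541 by mean among all genes. It stood at 284 ± 36.7 CPM in DB, 335 ± 162 in DSi, 359 ± 80.5 in DBSi, 146 ± 9.27 in D and 128 ± 53 in CK (SD, n = 3 each), and DSi-3 at 180 CPM lay close to CK-3 at 169 CPM. Glyur001223s00024741 was 2.53-fold higher, with 236 ± 83.1, 143 ± 30.3 and 200 ± 23.3 CPM in DB, DSi and DBSi, against 74.2 ± 19 in D and 78.2 ± 13.5 in CK (SD, n = 3 each). Glyur000010s00000894 was 1.77-fold higher and had its widest spread in DBSi, with 186 ± 11 CPM in DB, 147 ± 14.3 in DSi, 180 ± 45.3 in DBSi, 89.5 ± 15.6 in D and 104 ± 15.1 in CK (SD, n = 3 each). ONT.20861 was 2.56-fold higher, but DSi-2 at 125 CPM was hardly above D-2 at 123 CPM, and it did not meet the rule after TMM scaling.

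The lower genes were more numerous as deposited, and their folds were smaller. Their fold, here the mean of the D and CK means over the mean of the treated means, had a median of 1.7 (quartiles 1.48 and 2.11) and ran from 1.23 to 5.74. It was 2 or more in 24 of the 78 genes and 3 or more in 6. The gap was under 1.1 in 50 of the 78 genes, and its median was 1.06. Untreated means were a median of 1.63-fold above DB, 1.59-fold above DSi and 1.9-fold above DBSi. The summed level of the 78 genes was 4100 ± 261 CPM in DB, 4178 ± 114 in DSi, 3437 ± 180 in DBSi, 6960 ± 227 in D and 7321 ± 660 in CK (SD, n = 3 each).

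Glyur000008s00001267 was the clearest case in either direction, 5.74-fold lower with a gap of 2.34. It stood at 163, 145 and 145 CPM in DB, 226, 191 and 242 in DSi and 91.6, 68.7 and 80.1 in DBSi, against 764, 567 and 987 in D and 650, 1473 and 730 in CK. The treated groups did not overlap one another either, with DBSi lowest and DSi highest. Glyur000694s00023245 was 4.72-fold lower with a gap of 2.04. Its levels were 9.26, 7.67 and 8.69 CPM in DB, 14.9, 9.3 and 6.43 in DSi and 6.01, 9.41 and 5.59 in DBSi, against 40.4, 61.2 and 31.6 in D and 30.4, 47.5 and 32.2 in CK. In this gene the treated groups overlapped.

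Glyur001348s00036182 was 4.7-fold lower. It stood at 5.38, 3.99 and 7.76 CPM in DB, 5.91, 2.7 and 3.96 in DSi and 3.3, 3.71 and 1.55 in DBSi, against 23.5, 32.2 and 12.2 in D and 12.3, 27.9 and 11.9 in CK. Its lowest library, DBSi-3, held 5 reads. Glyur001931s00037071, 4.39-fold lower, stood at 3.29, 5.22 and 0 CPM in DB, 7.78, 5.1 and 8.16 in DSi and 1.8, 3.99 and 3.41 in DBSi, against 16.9, 22.4 and 31.3 in D and 17.2, 12 and 13.6 in CK. It was the only member with a library at 0 reads, DB-3. Glyur001467s00033959 was 4.12-fold lower, with 10.5 ± 3.11, 13.8 ± 2.96 and 6.85 ± 3.32 CPM in DB, DSi and DBSi, against 51.8 ± 16.7 in D and 33.7 ± 4.82 in CK (SD, n = 3 each).

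The next genes in the order of folds were between 2.38-fold and 3.39-fold lower. Glyur000114s00010460 had 6.55 ± 3.74 CPM in DB, 7.12 ± 1.92 in DSi, 2.97 ± 1.79 in DBSi, 21.1 ± 3.79 in D and 16.4 ± 4.04 in CK (SD, n = 3 each). Glyur000007s00002871 had 24 ± 2.17, 31.9 ± 8.18 and 14.5 ± 3.45 CPM in DB, DSi and DBSi, against 86.7 ± 39.4 in D and 49.2 ± 3.55 in CK (SD, n = 3 each), and D-2 alone reached 129 CPM. Glyur000927s00024240 differed from these in having DSi as its lowest group, at 4.9 ± 1.35 CPM, with 6.28 ± 3.71 in DB, 5.24 ± 1.17 in DBSi, 12.9 ± 1.55 in D and 16.1 ± 3.51 in CK (SD, n = 3 each). Glyur000047s00004010 had 27.2 ± 13.5, 31.7 ± 0.272 and 21 ± 5.78 CPM in DB, DSi and DBSi, against 64.5 ± 14.5 in D and 62.2 ± 15.2 in CK (SD, n = 3 each). Glyur000194s00016349, 2.77-fold lower, had DB-3 at 17.1 CPM and CK-1 at 18.8 CPM as its nearest libraries and did not meet the rule under either other scaling.

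A single member was among the 100 most abundant genes. Glyur000255s00016809, at rank 76, stood at 1142, 680 and 879 CPM in DB, 685, 756 and 999 in DSi and 964, 594 and 646 in DBSi, against 1450, 1231 and 1159 in D and 1973, 1658 and 1503 in CK. It was 1.83-fold lower, but DB-1 and D-3 nearly touched, and it did not meet the rule under either other scaling. The same held for Glyur000261s00014345, 1.78-fold lower with 162 ± 36.3 CPM in DB, 164 ± 9.47 in DSi, 117 ± 30.1 in DBSi, 288 ± 45.3 in D and 237 ± 25.3 in CK (SD, n = 3 each). Glyur001030s00028210 kept its place under both scalings. It was 1.87-fold lower, with 207 ± 30.5, 207 ± 46.9 and 157 ± 19.2 CPM in DB, DSi and DBSi, against 387 ± 51.7 in D and 325 ± 4.28 in CK (SD, n = 3 each).

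The rule held the treated means within 3-fold but did not set their order. Among the higher genes DBSi had the highest treated mean in 25, DB in 21 and DSi in 5, and DSi had the lowest in 32 (62.7%). Over all 16871 genes DSi was the lowest of the treated groups in 23.2% and the highest in 45.1%. Among the lower genes DBSi had the lowest mean in 50 (64.1%), DSi in 15 and DB in 13, against 37.2% for DBSi over all genes. With median-of-ratios scaling DSi was the lowest in 41 higher genes (80.4%, against 34.3% of all genes) and DBSi the lowest in 46 lower genes (59%, against 34.8%). Which treatment was closest to the untreated plants among the lower genes turned with scaling, since DSi was the highest in 44 genes as deposited and DB in 39 after median-of-ratios scaling. The ratio of the largest to the smallest treated mean, which the rule held under 3, had a median of 1.3 in higher and 1.23 in lower genes, beside 1.35 over all 16871 genes. That ratio was under 1.5 in 35 higher and 59 lower genes and 2 or more in 3 and 7.

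**Figure D4:**
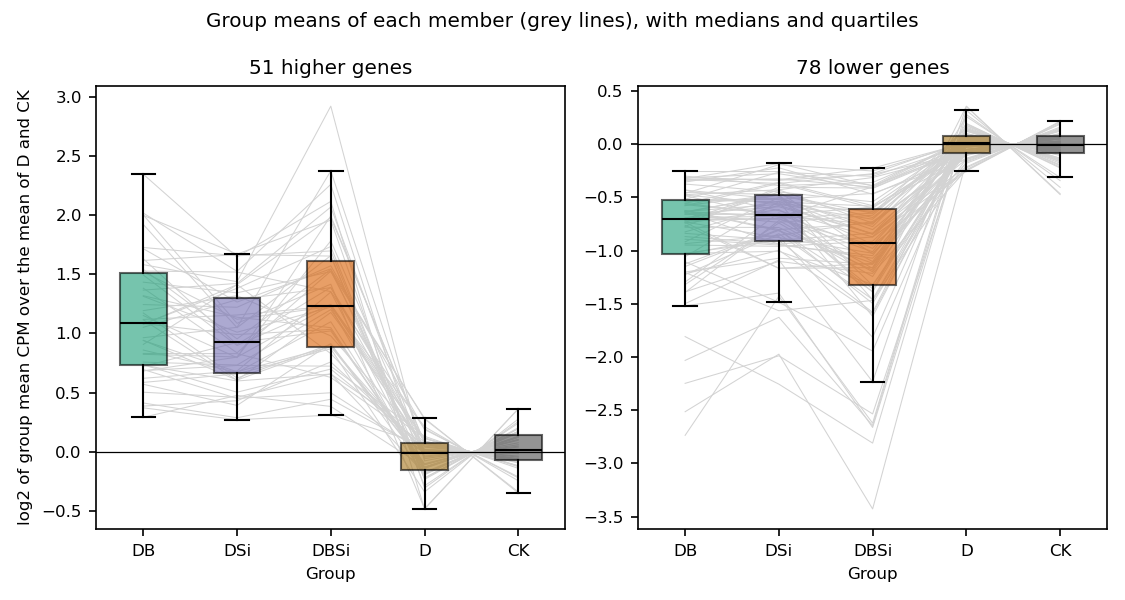
Boxes give the median and quartiles over members of the log2 ratio of each group's mean CPM to the mean of D and CK (vertical axis), whiskers reach 1.5 times the quartile range, and grey lines are single genes. The left panel holds the 51 higher genes, where DSi has the lowest treated median, and the right panel the 78 lower genes, where DBSi has the lowest.

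Differences among the treatments were tested with limma over 22654 genes, all members included, and p-values were adjusted over all of them. The same CPM had chosen the members, with a limit of 5 CPM where the genes tested needed 1 CPM in at least 3 libraries. Spread within groups, as a pooled SD of log2(CPM + 1), had a median of 0.33 in higher and 0.24 in lower genes. Over the 16871 genes it was 0.33. The members' share of calls is thus not independent of the rule. DBSi differed from DSi in 7 of the 129 genes, 3 of the higher genes (all higher in DBSi) and 4 of the lower genes (all lower in DBSi), beside 1.91% of all genes tested. DBSi differed from DB in 3 members, 1 higher and 2 lower, beside 2.45% of all genes, which is near the members' share. In each of these 10 calls the gene lay farther from the untreated plants in DBSi than in the single treatment. Most calls over all genes were higher in DBSi, 381 of 433 against DSi and 503 of 554 against DB. The calls in higher genes thus went the way most calls did, and those in lower genes went the other way. The median log2 difference of DBSi and DSi was 0.24 over the higher genes and -0.23 over the lower genes, beside -0.11 over all genes tested, and with edgeR 0.37, -0.14 and -0.02. The median log2 difference of DBSi and DB was 0.04 over the higher and -0.1 over the lower genes, beside 0.02 over all genes. With edgeR these medians were -0.0002, -0.17 and -0.003.

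Glyur000989s00020270 was the higher gene with the strongest call. It stood at 94, 97.2 and 123 CPM in DBSi, against 63.8, 36.3 and 25.2 in DSi and 45.7, 40.8 and 31.4 in DB, and at 18.1, 23 and 18.8 in D and 18.1, 21.9 and 20.9 in CK. All DBSi libraries lay above those of DSi and DB. The log2 difference was 1.4 (SE 0.26, limma adjusted p = 0.0126) from DSi and 1.4 (SE 0.26, limma adjusted p = 0.00882) from DB. Glyur000065s00004279, with the values given above, was higher in DBSi than in DSi by 1.62 (SE 0.35, limma adjusted p = 0.0297). Glyur008044s00047316 stood at 221, 110 and 155 CPM in DBSi and 92.1, 54.9 and 64 CPM in DSi (log2 difference 1.16, SE 0.27, limma adjusted p = 0.0432). This call was lost in limma with a replicate block (adjusted p = 0.0585) and with no filter on low values (adjusted p = 0.056).

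Among the lower genes Glyur000131s00012966 was lower in DBSi than in either single treatment. It stood at 97.6, 95.8 and 116 CPM in DBSi, against 218, 182 and 159 in DSi and 191, 196 and 180 in DB, and at 265, 288 and 222 in D and 246, 275 and 257 in CK. The log2 difference was -0.84 (SE 0.15, limma adjusted p = 0.00829) from DSi and -0.87 (SE 0.15, limma adjusted p = 0.0045) from DB, and both calls held when any single library was left out. With only DBSi and DSi in the fit, the limma adjusted p from DSi was 0.0616. Glyur000006s00001646 was also called in both comparisons. It had 45.7 ± 12.3 CPM in DBSi, 90.5 ± 4.41 in DSi and 81.1 ± 10.1 in DB (SD, n = 3 each), with log2 differences of -1.01 (SE 0.19, limma adjusted p = 0.0129) from DSi and -0.84 (SE 0.19, limma adjusted p = 0.0292) from DB. Both calls were lost with edgeR (adjusted p = 0.0542 from DSi and 0.0624 from DB) and in limma fits of only the groups compared (adjusted p = 0.0687 and 0.153). Glyur000008s00001267 was lower in DBSi than in DSi by a log2 difference of -1.44 (SE 0.27, limma adjusted p = 0.0122). Glyur000025s00003363 had 24 ± 5.67 CPM in DBSi and 46.3 ± 3.47 in DSi (SD, n = 3 each; log2 difference -0.94, SE 0.22, limma adjusted p = 0.0412), and this call was lost with edgeR (adjusted p = 0.131), with median-of-ratios scaling in limma (adjusted p = 0.0817) and with no filter on low values in limma (adjusted p = 0.0509).

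Leaving out single libraries ended most of the other calls. The count for DBSi against DSi was 1 without DSi-3, 2 without DSi-2 and 3 without DBSi-3, and 1 with only these groups in the fit, where Glyur000008s00001267 alone kept its call. The count for DBSi against DB was 1 without DB-3 or DBSi-3 and 5 without CK-2. Glyur000025s00003363 and Glyur008044s00047316 lost their calls in 10 of the 15 fits without a library. Glyur000065s00004279 lost its call without any DBSi library, DSi-2 or DSi-3, and Glyur000989s00020270 lost its calls without DBSi-3, the one against DSi also without DSi-2 or DSi-3, and the one against DB also without DB-3. Glyur000006s00001646 lost its call against DSi without DSi-2 or DSi-3, and its call against DB without DB-1, DB-3, DBSi-2 or DBSi-3. Glyur000008s00001267 lost its call without DSi-3 or DBSi-2.

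Between DSi and DB limma called 0 genes of any kind (0%), edgeR 0 genes, and DESeq2 14 genes with 0 members among them. At an unadjusted p under 0.05 limma listed 5 higher genes, all lower in DSi than in DB, and 3 lower genes, all higher in DSi, beside 9% of all genes. The median log2 difference of DSi and DB was -0.11 over the higher genes and 0.04 over the lower genes, beside 0.12 over all genes tested. With edgeR, which differs from limma in both scaling and model, these medians were -0.23, -0.09 and 0.01, so the sign for the lower genes turned. At an unadjusted p under 0.05 edgeR listed 9 higher genes (17.6%) and 1 lower gene, all lower in DSi, beside 8.02% of all genes. DESeq2 listed 9 higher genes, all lower in DSi, and 2 lower genes, 1 in each direction, beside 7.65%. D differed from CK in 0 members by limma, edgeR or DESeq2, beside 0.0486% of all genes called by limma, within a rule that kept the groups within 2-fold. At an unadjusted p under 0.05 limma listed 5 of the higher genes (9.8%) and 4 of the lower genes (5.13%), beside 7.97% of all genes. As deposited, the D mean was above the CK mean in 22 of the 51 higher and 40 of the 78 lower genes, and in 40.4% of all 16871 genes. In edgeR the difference of D and CK was positive in 27 of the 51 higher and 50 of the 78 lower genes. Over all genes tested its median log2 difference was -0.0003 with edgeR and -0.07 with limma.

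The isoform table was joined to the genes by read totals, which matched in all 15 libraries for 29224 genes and for 48 higher and 74 lower members. Of these members, 12 higher and 22 lower ones had 1 isoform, and the most isoforms were 10, in ONT.20861. In members with at least 2 isoforms, the main isoform held a median of 77.1% of the reads in the 36 higher genes and 90.1% in the 52 lower genes. The main isoform alone separated the treated from the untreated libraries in 23 of the 36 and 31 of the 52. The rule chose genes whose totals separate these libraries, so the order of treated and untreated values in their isoforms follows in part from it. Among other isoforms at a mean of 5 CPM or more, 4 of 27 in higher genes and 4 of 17 in lower genes were separated in the direction of their gene, and 0 and 2 had the opposite order of treated and untreated means. With main isoforms included, 0 of 73 in higher and 4 of 87 in lower genes had the opposite order. Among these 4 was the main isoform of Glyur000380s00017136 (ONT.10734.5, 40 CPM treated against 36.3 untreated). Another was that of Glyur001562s00037198 (ONT.17709.2, 7.83 against 7.49 CPM).

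The share of each isoform within its gene was tested between treated and untreated plants with limma. The rule did not use the shares themselves, but it used the gene totals by which they are divided. No share was called in the 58 members tested or in any of the 5812 genes (0%), and the lowest adjusted p was 0.0873. edgeR's test on reads called 0 of the members and 34 of 5797 genes. At an unadjusted p under 0.05, 10 of 28 higher and 11 of 30 lower members had at least 1 isoform (36.2% together), beside 13.9% of all genes tested. This comparison is not independent of the rule, since a change in 1 isoform alters both the gene total and the shares. The members as a whole were also more abundant. Their mean CPM had a median of 35.1 in higher and 28.8 in lower genes, beside 18.6 over the 16871 genes. The members with the lowest p, chosen here after their values were seen, show the size of such differences. Isoform ONT.11309.1 of Glyur000436s00018450, a higher gene, held 14.3 ± 2.13% of its reads in DB, 8.6 ± 0.893% in DSi, 20.4 ± 5.51% in DBSi, 4.69 ± 1.24% in D and 7.97 ± 2.69% in CK (SD, n = 3 each; limma adjusted p = 0.152). Of the reads of Glyur000034s00002942, a lower gene, its reference isoform held 40.6 ± 4.28% in DB, 40.5 ± 6.83% in DSi, 40.9 ± 6.11% in DBSi, 25.1 ± 2.2% in D and 28.9 ± 5.88% in CK (SD, n = 3 each; limma adjusted p = 0.203). Of the reads of Glyur001935s00034600, a higher gene, isoform ONT.18490.1 held 74.5 ± 3.19%, 76.8 ± 4.75% and 68 ± 2.48% in DB, DSi and DBSi, against 83.6 ± 4.01% in D and 85.5 ± 4.39% in CK (SD, n = 3 each; limma adjusted p = 0.162).

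Members of a list were compared with one another on what was left after group means were removed. Over the 15 libraries, the median Pearson correlation of these deviations was 0.2 between pairs of higher genes (69.1% of 1275 pairs positive), 0.04 between pairs of lower genes (54.7% of 3003 positive) and -0.08 between a higher and a lower gene (42.6% of 3978 positive). Over all pairs of the 16871 genes the median was 0.04 and 53.9% were positive, close to the lower genes. These points share libraries and their depth, and the values are a description. The CPM of the same libraries also chose the members. Their median mean CPM was 35.1 in higher and 28.8 in lower genes, beside 18.6 over the 16871 genes, so the pairs compared are unlike in level. Of the members 5 higher (9.8%) and 1 lower (1.28%) had ONT IDs, beside 6.25% of the 16871 genes. The 123 members with reference IDs carried 116 different first blocks of digits, and 6 blocks were shared by 2 or 3 members, in 1 of them with all members in the same direction (Glyur000159s00010254 and Glyur000159s00010260, both lower). In another, Glyur000096s00005901 and Glyur000096s00005969 were higher and Glyur000096s00005931 was lower, and the other 4 blocks held 1 gene of each direction.

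Genes near the edges of the rule had values much like those of members. Glyur000103s00007413 was the higher gene with the smallest gap, 1.002, and Glyur001941s00031290 just missed with a gap of 0.996, at means of 37.6, 36.5 and 37.2 CPM in DB, DSi and DBSi, against 24.8 in D and 27.7 in CK. For the lower genes the nearest on either side were Glyur002834s00043435 (1.00007) and Glyur001733s00027623 (0.9995). Beyond the limit on treated means, Glyur000608s00025889 was separated, with means of 19.6, 23.6 and 67.6 CPM in DB, DSi and DBSi, against 11.5 in D and 11.9 in CK, a treated ratio of 3.45. Inside that limit the nearest members were Glyur000065s00004279 (2.8) and Glyur000008s00001267 (2.74), and the nearest lower gene outside was Glyur002606s00033938 (3.03). Beyond the limit on D and CK lay Glyur000056s00004125 (2.08-fold) and Glyur001607s00029751 (2.05-fold), with Glyur000953s00031174 (1.78-fold) the nearest lower member inside. At the limit of 5 CPM, the lowest largest group mean was 6.64 CPM among higher members (Glyur000469s00029348, with Glyur000544s00017434 outside at 2.54) and 5.58 among lower members (Glyur000069s00004057, with Glyur001062s00037251 outside at 4.78).

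The genes outside the list whose 5 group means were most like the median member in shape, whatever the size of the difference, had overlapping libraries. For the higher genes these were Glyur000696s00018520, Glyur000025s00003375 and ONT.6890 (Pearson r of 0.999, 0.998 and 0.996 over 5 groups). Glyur000696s00018520 differed little, with means of 17.8, 17.4 and 18.4 CPM in DB, DSi and DBSi, against 14.7 in D and 14.7 in CK, and so did ONT.6890, with 9.04, 8.79 and 9.07 CPM, against 6.6 in D and 6.95 in CK. Glyur000025s00003375 had means of 66.9, 63.1 and 91.4 CPM in DB, DSi and DBSi, against 32.2 in D and 32.9 in CK, and its lowest treated library, 42.4 CPM, lay below its highest untreated library, 44.7 CPM. For the lower genes these were Glyur000986s00028876, Glyur005290s00041800 and Glyur000195s00012864 (r of 0.999, 0.999 and 0.998). Glyur000986s00028876 had means of 11.5, 14.7 and 9.06 CPM in DB, DSi and DBSi, against 33.3 in D and 32.6 in CK.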

How the data were processed

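The authors deposited CPM values per gene (30197 genes) and per isoform (53338 isoforms), with 1 column for each library per the file headers. minimap2 is the aligner named, per the submitters' processing notes. Which version, counter and build went with it, and how reads of near-identical gene copies were split, is not given in the sources used here. All values were whole multiples of 1 read within a tolerance of 0.01, so reads were recovered. limma 3.58.1 in R 4.3.3 was fitted to log2(CPM + 1) in all 15 libraries, with group as the only factor and a trend, for genes with 1 CPM in at least 3 libraries, two-sided, with Benjamini-Hochberg adjustment over all genes and a threshold of 0.05. edgeR 4.0.16 and DESeq2 1.42.0 were run on recovered reads as alternatives. Isoforms were joined to genes where the reads of a gene equalled, in every library, those of its own isoforms alone (17361 genes). They were also joined where the reads equalled those of its own isoforms plus those of 1 ONT locus (11863 genes). Shares were tested as arcsine square roots for isoforms with a mean share of 5 to 95% in genes with a mean of 5 CPM or more.

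Named genes were the 10 largest folds, the 5 most abundant members and up to 5 with the lowest adjusted p in each direction, with the genes nearest to each limit and 3 alike genes outside the list. Scripts were tested on simulated data. The members, lists and tests were chosen with earlier results of these data known. The gene lists and organ markers set down at the start could not be run, as IDs have no names here.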

Additional observations from a re-analysis of the deposited data

How the results depend on the processing

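Of the counts of members called, DESeq2 gave 6 for DBSi against DB, beside 3.31% of all genes tested. It gave 11 for DBSi against DSi, beside 3.61% of all genes, more than the 1.91% that limma called. A fit of only the groups compared gave 1 for DBSi against DSi. Without CK-3, D-2 and DB-3 together, chosen after seeing the data, the rule took 203 higher and 234 lower genes and DBSi against DB had 1 member called. Over the fits without a single library, the rule took 53 to 103 higher and 81 to 181 lower genes, and 1 to 5 members were called in DBSi against DB and 1 to 8 in DBSi against DSi. With fewer libraries the rule asks for fewer to be separated, so these counts tend to rise by construction. The counts for D against CK, DSi against DB and isoform shares were 0 under every alternative run. Of 30 pairs of libraries with the same replicate number, 8 had a correlation of deviations over 0.1 (range -0.22 to 0.33), so the numbers were not taken to pair libraries. With a replicate block the counts were 3 for DBSi against DB, 7 for DBSi against DSi and 0 for the others, but in DBSi against DSi Glyur008044s00047316 was lost (limma adjusted p = 0.0585) and another member gained. With median-of-ratios scaling and with a pseudocount of 0.5, the values recomputed for the 31 named genes all moved by less than the spread between replicates. Of these genes, 26 met the rule under both other scalings. The rest of the 527 recomputed values left out 1 library each. Those could not move by as much as the spread, since a library far from its group also widens the spread, so they show no stability. Depth limits the weakest members, since the least abundant held 183 reads over all libraries, and intervals from reads would cover counting error only.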

Other observations

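In the isoform table, some members had a main isoform at 0 in a few libraries in which another isoform was above 0. In Glyur000380s00017136, a lower gene, isoform ONT.10734.5 held 36.3 to 58 CPM in 12 libraries and was listed at 0 in DSi-1, CK-2 and CK-3, where ONT.10734.7 held 37, 51.5 and 43.6 CPM and was listed at 0 in the other 12. In Glyur000708s00035900, also lower, ONT.13944.7 was listed at 0 in DSi-2, DBSi-3 and CK-3, and those were the libraries in which ONT.13944.8 was above 0, at 36.6, 44.7 and 38.9 CPM. Of the 160 isoforms of members with a mean of 5 CPM or more, 20 were listed at 0 in at least 1 library, in 14 members. The part of read assignment in the isoform shares was not tested. Both pairs were chosen after their values were seen.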
